A study of Mus musculus with 27 samples.

Results

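The genes followed here were 40 genes of the cell division programme, taken from their textbook roles and read on 1-colour Agilent arrays of differentiating mouse embryonic stem cells (ESCs). All 40 were matched, among 37208 genes or transcripts on the array, through the RefSeq accession of each probe. Where a gene had several probes, the one with the highest mean over the 27 arrays stood for it. They divide into 17 S phase members, which license and copy DNA, and 23 mitotic members, which carry the cell through G2 and mitosis.

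All arrays came from dnFOS ESCs, a picked A17 2lox (A2lox) clone grown on feeder cells, in which a Flag-tagged dominant-negative FOS at the Hprt locus is switched on by doxycycline (DOX). dnFOS pairs with JUN proteins and keeps AP-1, the FOS and JUN transcription factor, off DNA. ESCs were differentiated as embryoid bodies for 3.75 days, and FLK1+ cells, the hemangioblast fraction, were purified and placed in blast culture, where they turn into smooth muscle and, through hemogenic endothelium (HE), blood progenitors. The question put to these genes was how far the division programme moved along that path and with DOX. The untreated groups were FLK1+ cells, complete cultures after 5 h (FLK1+ 5h) and after 1 day (d1 BC), and 4 populations sorted from later cultures. They were smooth muscle (SM), 2 stages of KIT+ TIE2+ hemogenic endothelium, of which HE1 lacked CD41 and HE2 carried it, and hematopoietic progenitors (HP), which carried KIT and CD41 and had lost TIE2. Every group but FLK1+ had a partner given DOX at 1 µg/ml, for 5 h, 1 day or, before sorting, 2 days. The 13 groups held 2 arrays each, apart from 3 of untreated SM. All groups carried the cassette, none of the samples analysed here had DOX without it, and so DOX itself cannot be told apart from dnFOS. The labels do not say that replicates were separate cultures, so p-values measure the spread between these samples, which may be technical, and the small number of arrays limits precision.

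A cell that commits to division first raises cyclin E and E2F1, whose complexes switch on genes for licensing origins, making nucleotides and copying DNA. The MCM2 to MCM7 helicase is loaded on origins by CDC6 and CDT1 and fires with the GINS complex, while PCNA clamps the polymerases to the template. Later, MYB, FOXM1 and NF-Y complexes switch on cyclin B, CDK1, kinesins, kinetochore and checkpoint genes, so that the share of cells in S phase and in mitosis sets how much of these transcripts a culture holds. Hemangioblasts divide fast, and maturing smooth muscle and endothelium slow down. In RNA from many cells, fewer cycling cells and less RNA per cell cannot be told apart.

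The start regions of the members are shown first, since they carry letters through which the S phase and mitotic genes are known to be read. RefSeq windows of 300 bases, 250 before to 50 after the start on GRCm38.p6, were at hand for 32 of the 40 members, as 34 windows because Mcm7 and Uhrf1 have 2 each. No window was at hand for Aurkb, Ccna2, Ccne2, Cdc25c, Gins2, Kif20a, Mcm4 and Tpx2. Both strands were searched for CCAAT (read by NF-Y), TTTGAA (the core of the cell cycle genes homology region), the E2F letters (TTTGGCG in one form, TTTCCCG in another form and TTTCGCG in the last form), the AP-1 letters TGACTCA and the GC box letters GGCGGG. The CCAAT letters stood in 27 of 34 member windows, 79.4%, against 37.4% of the 32851 windows of all 27025 genes. The TTTGAA letters differed between the sets, with 13 of 18 mitotic windows (72.2%) and 1 of 16 S phase windows (6.25%) against 17.9% of all windows. The E2F letters ran the other way, in 7 of 16 S phase windows (43.8%) and 3 of 18 mitotic windows (16.7%) against 5.58% of all. The GGCGGG letters stood in 30 of 34 member windows, 88.2%, against 35.3% of all. The AP-1 letters stood in 0 of 34 member windows and in 5.2% of all, which says only that these letters are not in these windows. Other letters read by JUN dimers, such as the CREB motif that the study found in JUN-only peaks, were not searched. A match is a description of the letters and not of binding.

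The 200 bases before the start are printed 5′ to 3′ in the direction of the gene for 3 S phase and 3 mitotic members that the results below turn on, with the CCAAT letters, the TTTGAA letters and the E2F letters in capitals on either strand. Ccne1 (cyclin E1, chr7:38107491-38107690, minus strand) held none of these letters, so its printed stretch is all in lower case. Mcm5 (chr8:75109309-75109508, plus strand) and Mcm6 (chr1:128359706-128359905, minus strand), helicase subunits, held E2F letters that overlap on both strands and 2 CCAAT each. Kif11 (chr19:37376182-37376381, plus strand), the motor that separates spindle poles, held 1 CCAAT and 1 TTTGAA. Mki67 (chr7:135716380-135716579, minus strand), which coats mitotic chromosomes, held 3 CCAAT and 2 TTTGAA. Top2a (chr11:99024190-99024389, minus strand), the topoisomerase that untangles sister DNA, held 5 CCAAT and 2 TTTGAA.
Ccne1: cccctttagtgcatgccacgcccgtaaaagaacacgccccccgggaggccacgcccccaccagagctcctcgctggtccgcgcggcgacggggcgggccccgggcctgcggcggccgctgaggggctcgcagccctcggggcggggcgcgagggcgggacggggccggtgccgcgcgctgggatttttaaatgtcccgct
Mcm5: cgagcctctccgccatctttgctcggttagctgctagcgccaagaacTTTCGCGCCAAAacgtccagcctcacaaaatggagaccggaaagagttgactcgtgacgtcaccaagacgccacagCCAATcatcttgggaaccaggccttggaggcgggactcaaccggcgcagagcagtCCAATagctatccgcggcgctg
Mcm6: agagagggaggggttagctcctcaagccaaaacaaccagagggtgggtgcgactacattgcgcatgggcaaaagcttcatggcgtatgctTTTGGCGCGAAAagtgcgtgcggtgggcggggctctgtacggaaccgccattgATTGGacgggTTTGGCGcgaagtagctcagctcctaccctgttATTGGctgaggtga
Kif11: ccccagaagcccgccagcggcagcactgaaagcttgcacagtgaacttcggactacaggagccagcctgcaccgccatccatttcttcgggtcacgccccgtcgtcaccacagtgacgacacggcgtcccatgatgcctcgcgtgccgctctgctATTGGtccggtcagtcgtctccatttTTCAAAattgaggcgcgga
Mki67: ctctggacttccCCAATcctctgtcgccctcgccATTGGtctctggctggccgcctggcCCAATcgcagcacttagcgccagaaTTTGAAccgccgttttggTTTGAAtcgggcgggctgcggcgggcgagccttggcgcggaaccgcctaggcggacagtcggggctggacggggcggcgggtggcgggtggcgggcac
Top2a: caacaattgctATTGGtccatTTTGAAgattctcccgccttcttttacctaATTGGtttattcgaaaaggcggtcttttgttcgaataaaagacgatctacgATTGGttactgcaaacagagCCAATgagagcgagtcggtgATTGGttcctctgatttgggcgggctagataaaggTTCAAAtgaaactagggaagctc

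The S phase members were the cyclin E genes Ccne1 and Ccne2, E2f1, the licensing genes Cdc6, Cdt1, Mcm2, Mcm3, Mcm4, Mcm5, Mcm6, Mcm7 and Gins2, the clamp gene Pcna, the nucleotide synthesis genes Rrm1, Rrm2 and Tyms, and Uhrf1. The mitotic members were the cyclin and CDK genes Ccna2, Ccnb1, Ccnb2, Cdk1 and Cdc25c, the kinase and checkpoint genes Aurka, Aurkb, Plk1, Ttk, Bub1, Bub1b, Birc5 and Cdc20, the centromere genes Cenpa, Cenpe and Cenpf, the spindle genes Kif11, Kif20a, Kif23, Nusap1 and Tpx2, and Mki67 and Top2a.

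A level is the processed signal on the log2 scale after subtracting its 75th percentile over that array, and it compares arrays, not genes. The Ccne2 and Aurkb probes were not well above background on any of the 27 arrays, Cenpf was above it on 23, and Ccnb2 lacked 1 array to a spot marked as an outlier, which left 38 members to test in most comparisons. Hprt was higher on every DOX array than on every untreated array of its population, by 1.41 at 5 h and by 2.13 to 3.62 elsewhere on the log2 scale, which checks the labels, though where its probe lies relative to the cassette was not tested. The 75th percentile of signal ran from 73.2 to 636 between arrays, 46.9% to 89.6% of probes were well above background, and replicates correlated at 0.913 to 0.977. The dimmest array was HE2 replicate 1, at 73.2 beside 603 in HE2 replicate 2, with 51.05% and 74.84% of probes well above background. Smooth muscle markers (7 of 7 detected) summed to 976 to 2045 times the 75th percentile signal in untreated SM against 76.3 to 76.4 in HE2, blood progenitor markers to 93.4 to 116 in HP against 4.48 to 5.27 in HE1. Endothelial markers summed to 92.5 to 182 in HE1. The replicate 2 arrays of SM, with and without DOX, stood apart: endothelial markers there reached 73.6 and 76.8, against 13.1 and 10.72 at the lowest in the other SM arrays, so SM results are also given without both. Pluripotency markers differed between SM arrays as well, summing to 1.13 to 22.4 without DOX and to 0.72 to 12.6 with it. They summed to 22.9 to 27.3 in FLK1+ cells and to 2.65 to 3.34 in d1 BC, and their part in the SM results was not tested. Arrays lay on 5 slides, and slide 3 held replicate 2 of all 4 sorted populations. On slide 3 the means over both sets read above the other replicates in every sorted group. Medians within a slide are therefore given beside pooled ones for most comparisons, and set means within a slide for HE1 against SM.

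Without DOX, S phase members were lower after 5 h of blast culture than in FLK1+ cells, with a smaller median difference among mitotic members. The median log2 difference was -0.92 for 16 S phase members, of which 15 were lower, and -0.34 for 22 mitotic members, of which 17 were lower, beside -0.18 for all genes. None of the 38 members tested was called (limma adjusted p under 0.05 and at least 2-fold), where 2.84% of 22664 genes were, and 4 had an unadjusted p under 0.05, where 15% of all genes did. The arrays did not overlap for 21 members that were lower at 5 h, 13 of them S phase, and for 3 that were higher, beside 33.3% and 25.7% of all genes. On slide 4, the only one with both groups, the medians were -0.91 and -0.36. Over the processing alternatives they ran from -0.99 to -0.54 and from -0.38 to -0.12.

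Ccne1, which drives entry into S phase, stood at 5.53 and 5.06 in FLK1+ cells and at 4.11 and 3.67 after 5 h. Both 5 h arrays lay below both FLK1+ arrays, by 1.40 ± 0.55 (SE) on the log2 scale, with a limma adjusted p of 0.22. E2f1, the factor that turns on S phase genes, went from 2.83 and 2.33 to 1.38 and 1.47 (adjusted p = 0.274 by limma). Mcm5 went from 6.55 and 6.02 to 4.86 and 5.24 (adjusted p = 0.32 by limma). Ccne1, E2f1 and Mcm5 thus shared non-overlapping lower levels at 5 h, none past the threshold over all genes. The mitotic member with the lowest p, Cenpe, a kinesin that links chromosomes to the spindle, lay the other way, at 3.89 and 4.15 in FLK1+ cells and at 5.76 and 4.75 after 5 h (adjusted p = 0.327 by limma). The call depended on the processing: Ccne1 passed with array quality weights, with slide as a random block and in the authors' values, Cenpe in the authors' values and with quantile normalization, and E2f1 in the authors' values. Of 6 stress genes, 5 had a positive change in the same contrast, at a median of 1.89. Hspa1a and Gadd45b, a chaperone and a damage response gene, rose by 3.43 ± 0.64 and 2.88 ± 0.54 (limma adjusted p = 0.00664 and 0.00697). Smooth muscle markers summed to 100.2 to 125 in FLK1+ cells and to 538 to 949 after 5 h, and pluripotency markers to 22.9 to 27.3 and to 9.55 to 14.8. The part of these lists in the S phase result was not tested.

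Between 5 h and day 1 the median differences were 0.03 for S phase and -0.12 for mitotic members beside 0.04 for all genes. Within slide 4 each median was 0.12, while median scaling gave -0.30 for S phase members and -0.30 for all genes. By limma 0 members were called, where 1.44% of 23439 genes were, and 1 member had an unadjusted p under 0.05, where 10.6% of all genes did. The arrays did not overlap for 7 members that were higher and 8 that were lower on day 1, beside 21.7% and 24% of all genes. The member with that p was Nusap1, which bundles spindle microtubules, at 3.92 and 3.29 after 5 h and 2.18 and 2.68 on day 1, lower by 1.17 ± 0.50 (SE) with a limma adjusted p of 0.389. In the authors' values Nusap1 passed, at -1.31 (limma adjusted p = 0.0114, the lowest of a range up to 0.767 over the alternatives). Cdc6, the S phase member with the lowest p, differed by 1.70, but its 5 h arrays read -1.17 and 1.36 and its day 1 arrays 1.65 and 1.93, so the size rested on the first 5 h array.

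Most members read lower in SM and in HE1 than in d1 BC, and none passed the test. In SM, 13 of 16 S phase and 20 of 22 mitotic members were lower than in d1 BC, with medians of -0.40 and -0.53 beside 0.01 for all genes. The limma test called 0 members, where 0.243% of 23083 genes were, and 1 member had an unadjusted p under 0.05 beside 5.86% of all genes. Non-overlapping lower levels were found for 10 members, beside 9.86% of all genes, 8 of them mitotic, and for 0 higher, beside 13.4%. Top2a led, at 3.39 and 4.16 in d1 BC and 2.98, 2.10 and 2.12 in SM, lower by 1.38 with a limma adjusted p of 0.751. Ccne1 was lower by 0.63, at 3.88, 3.64 and 3.43 against 4.39 and 4.17. Within slide 4 all 16 S phase and 21 of 22 mitotic members were lower in SM, at medians of -0.47 and -0.77. Without the replicate 2 arrays of SM the medians were -0.64 and -0.56, and without SM replicate 3 they were -0.13 and -0.45. Fibroblast feeder markers summed to 33.01 to 40.4 in d1 BC and to 171 to 209 in SM, and erythroid markers to 22.01 to 85.7 and to 74.5 to 545, whose part in the members' levels was not tested.

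In HE1, 13 of 16 S phase and 18 of 22 mitotic members were lower than in d1 BC, with medians of -0.78 and -0.47 beside 0.05 for all genes. The call was met by 0 members in limma, where 3.13% of 23549 genes were, and 3 had an unadjusted p under 0.05, where 17% of all genes did. For 24 of the 38 members, 11 S phase and 13 mitotic, both HE1 arrays lay below both d1 BC arrays, beside 30% of all genes, and for 0 members above, beside 29.7%. Kif23, a kinesin of the midbody, stood at 2.39 and 2.71 in d1 BC and at 0.37 and 0.95 in HE1, lower by 1.89 ± 0.65 (SE) with a limma adjusted p of 0.134. Ccne1 stood at 4.39 and 4.17 in d1 BC and at 2.74 on both HE1 arrays, lower by 1.54 ± 0.55 (adjusted p = 0.148 by limma), and Top2a was lower by 1.42. Neither group overlapped the other for these 3 genes, and no slide held both groups, so slide and group cannot be told apart here. Here median scaling gave larger medians, of -1.51 and -1.19, beside -0.68 for all genes. Over the processing alternatives the medians ran from -1.51 to -0.40 and from -1.19 to -0.12. The S phase median was -0.51 without HE1 replicate 1. Smooth muscle markers summed to 1194 to 1795 in d1 BC and to 277 to 600 in HE1, and endothelial markers to 13.2 to 21.2 and to 92.5 to 182. Their part in the members' levels was not tested. Ccne1 was called with array quality weights, quantile normalization, the mean of all probes and in the authors' values, and Kif23 with array quality weights and normexp background correction. HE1 against SM differed less, with medians of -0.31 and -0.01 beside 0.03 for all genes. Within slide 1 the S phase mean, relative to each gene's mean over the groups, was -1.03 in HE1 and -0.92 in SM. Within slide 3 it was -0.51 and -0.02. The same mean of the mitotic members was -0.74 and -0.72 within slide 1 and -0.36 and -0.40 within slide 3. These means include Ccne2 and Aurkb, whose probes were not well above background on any array. For HE1 against SM limma called 0 members where 0.573% of 23404 genes were, and found 0 with an unadjusted p under 0.05 where 8.62% were. Ccne1 and Kif23 again had the lowest p of their sets, lower in HE1 by 0.91 and 0.68 with intervals from -1.96 to 0.14 and from -1.93 to 0.57, and without both replicate 2 arrays of SM the medians turned to 0.02 and 0.11. Kif23 was lower by 0.39 without HE1 replicate 1.

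Most members read higher in HE2 than in HE1, and none passed the test. All 16 S phase and 19 of 21 mitotic members were higher in HE2 than in HE1, with medians of 0.60 and 0.68 beside 0.04 for all genes, of which 52.1% were higher. limma called 0 members, where 2.33% of 23452 genes were, and 1 had an unadjusted p under 0.05, where 9.41% of all genes did. Both HE2 arrays lay above both HE1 arrays for 18 of 37 members, 7 S phase and 11 mitotic, beside 16% of all genes, and for 0 members below, beside 16.1%. The size differed between slides, with medians of 0.25 and 0.25 within slide 1 and of 1.04 and 1.06 within slide 3, where all 16 S phase and all 21 mitotic members were higher. Without HE2 replicate 2, the slide 3 array, the S phase median was -0.01 and the mitotic median 0.33. Markers of other cells moved in the same step: fibroblast feeder markers summed to 46.1 to 88.2 in HE1 and to 3.86 to 5.28 in HE2, and smooth muscle markers to 277 to 600 and to 76.3 to 76.4. Their part in the members' levels was not tested.

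E2f1 stood at 1.39 and 1.53 in HE1 and at 2.44 and 2.62 in HE2, higher by 1.07 ± 0.50 (SE) with a limma adjusted p of 0.505. Kif11 stood at 1.49 and 0.52 in HE1 and at 1.73 and 2.28 in HE2, higher by 1.00 (adjusted p = 0.61 by limma), by 0.52 without HE1 replicate 2 and by 1.48 without HE1 replicate 1. For both genes the groups did not overlap, as they did not for Mcm6 (1.27), Tyms (1.099), which makes thymidylate, and Uhrf1 (1.09), which brings DNA methylation to copied strands. In the authors' values E2f1 and Mcm6 were called. From HE2 to HP, 15 of 16 S phase and 13 of 22 mitotic members were higher, at medians of 0.48 and 0.13 beside 0.08 for all genes. For this step limma called 0 members where 0.00394% of 25351 genes were, and 0 with an unadjusted p under 0.05 where 6.05% were. HP lay above HE2 without overlap for 1 member and below it for 2, beside 15.4% and 14.8% of all genes. Mcm5 differed by 0.88, at 5.63 and 6.07 in HP against 4.22 and 5.72 in HE2, and the checkpoint kinase gene Bub1 by 0.82, at 3.20 and 3.33 against 1.71 and 3.19. Within the 2 slides that held both populations the S phase medians were 0.62 and 0.38 and the mitotic ones 0.57 and -0.08. Without HE2 replicate 1, the dimmest array, the pooled medians were -0.039 and -0.35, and Mcm5 and Bub1 differed by 0.13 and 0.071. Without HE2 replicate 2 the medians were 0.94 and 0.502, and these genes differed by 1.63 and 1.56. Without HP replicate 1 the medians were 0.74 and 0.26, and without HP replicate 2 they were 0.12 and -0.10. Endothelial markers summed to 81.9 to 109 in HE2 and to 47.3 to 57.2 in HP, and their part was not tested.

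**Figure D1:**
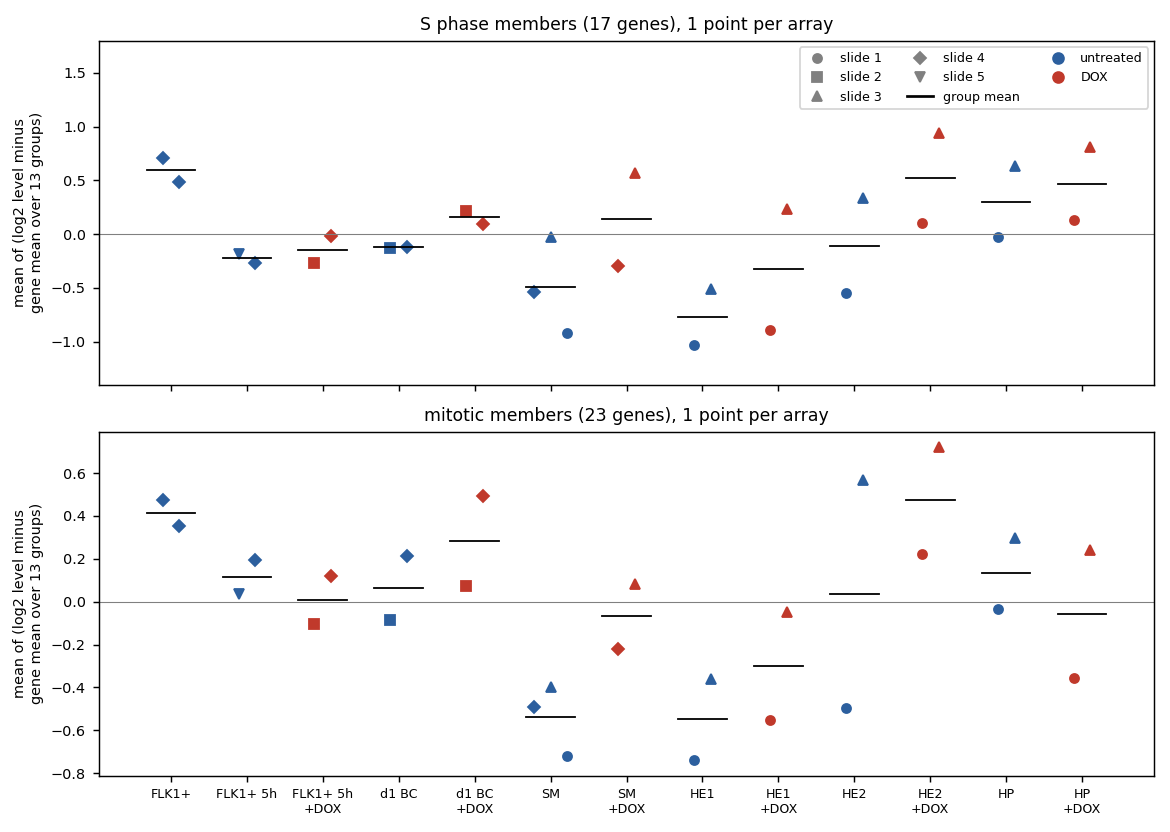
Mean over the 17 S phase members (top) and the 23 mitotic members (bottom) of log2 level minus the gene's mean over the 13 groups, 1 point per array, with marker shape for slide, colour for DOX and a bar for the group mean. Group means of the S phase members ran from 0.60 in FLK1+ cells to -0.77 in untreated HE1, and the slide 3 arrays (triangles) read above their replicates in every sorted group. The means include Ccne2 and Aurkb, whose probes were not well above background on any array.

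The 6 genes whose levels were set out in full followed different courses without DOX. Ccne1 was highest in FLK1+ cells and lowest in HE1, and its HP arrays, at 3.38 and 3.78, overlapped those of SM, at 3.88, 3.64 and 3.43. E2f1 in HP stood at 2.41 and 2.88, which overlaps FLK1+ cells, while d1 BC (1.28 and 1.63), SM (1.62, 2.11 and 1.12) and HE1 did not differ beyond their spread. Mcm5 stood at 4.40, 5.10 and 4.001 in SM, 4.02 and 4.69 in HE1, 4.22 and 5.72 in HE2 and 5.63 and 6.07 in HP. Its spread within SM and within HE2 was as wide as the steps between these neighbours. Pcna stood at 7.20 and 7.45 in FLK1+ cells, at 6.84 and 6.62 after 5 h and at 6.33 and 6.36 in d1 BC, so that each step lay below the last on both arrays. Its sorted arrays ran from 4.62 in SM to 7.73 in HP. Ccnb1, the mitotic cyclin, stood at 5.95 and 5.74 in FLK1+ cells and at 4.41, 4.50 and 3.81 in SM and 4.39 and 4.37 in HE1, with HE2 between, at 4.86 and 5.42. Mki67 did not share the FLK1+ peak: it stood at 5.06 and 5.19 there, at 5.76 and 5.39 after 5 h and at 5.54 and 6.35 in HE2.

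**Figure D2:**
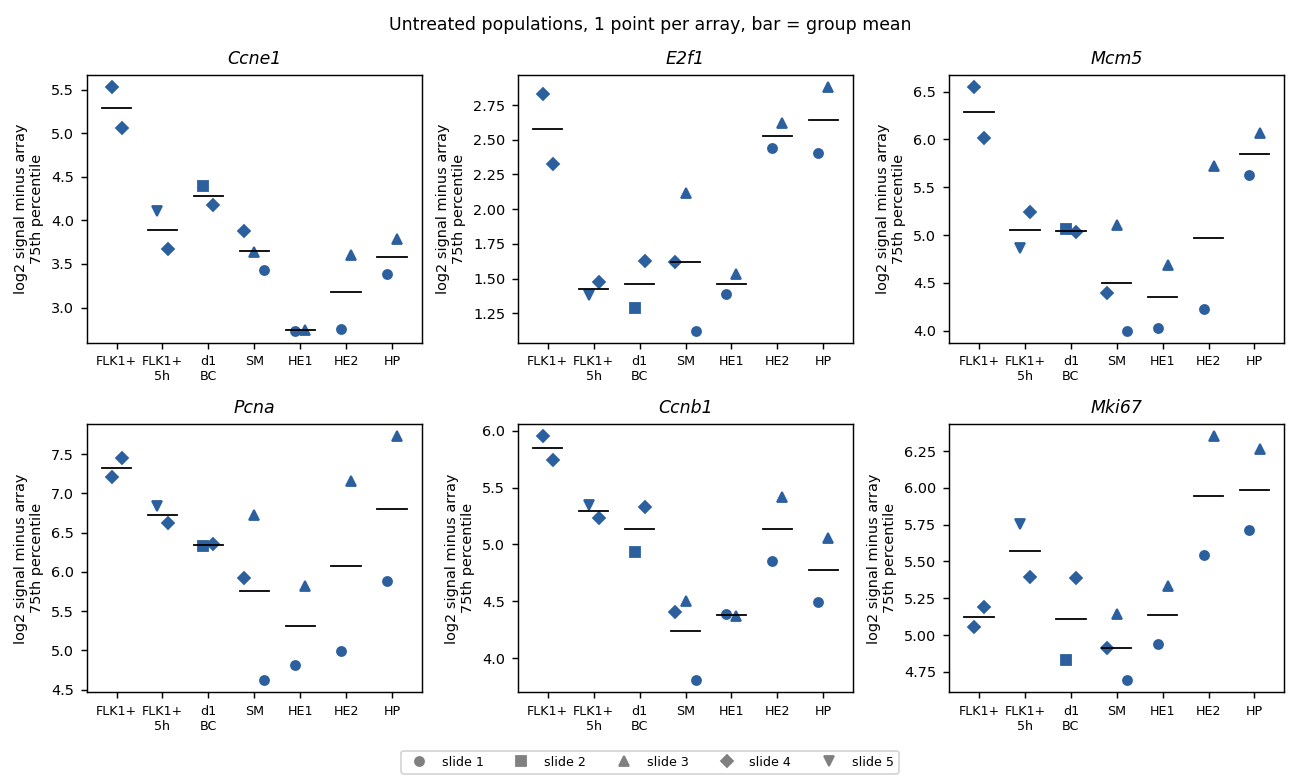
Levels of Ccne1, E2f1, Mcm5, Pcna, Ccnb1 and Mki67 in the 7 untreated groups (log2 signal minus the array 75th percentile), 1 point per array with marker shape for slide and a bar for the group mean. The group means of Ccne1, Mcm5, Pcna and Ccnb1 were highest in FLK1+ cells, while the highest Mki67 array, at 6.35, was of HE2.

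After 5 h of DOX no member differed past the threshold from its untreated level. The median change was -0.04 for S phase and -0.21 for mitotic members, beside -0.04 for all genes, with 6 of 16 and 7 of 22 members positive. None was called by limma, where 0.00421% of 23763 genes were, and 0 had an unadjusted p under 0.05, where 4.98% of all genes did. Both DOX arrays lay above both untreated arrays for 2 members and below them for 7, beside 18.6% and 16.4% of all genes. Cenpe stood at 5.76 and 4.75 without DOX and at 4.62 and 4.57 with it, a change of -0.67 with an interval from -1.89 to 0.56, or -0.16 without the first untreated array. Cdc6 had the lowest p among S phase members, at 1.12 with an interval from -1.47 to 3.72, and its untreated arrays read -1.17 and 1.36, which overlaps its DOX arrays at 1.03 and 1.41. Its sign turned without the first untreated array, to -0.14, and with slide as a fixed block, to -0.09. Within slide 4 the medians were 0.08 and -0.04, and under median scaling, which shifted all genes by -0.64, they were -0.68 and -0.85.

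In d1 BC given DOX for 1 day, 15 of 16 S phase and 16 of 22 mitotic members were positive, with medians of 0.21 and 0.17 beside 0.13 for all genes, of which 62.9% were positive. None passed in limma, where 0% of 23957 genes were, and 0 had an unadjusted p under 0.05, where 1.44% of all genes did. The arrays did not overlap for 13 members that were higher with DOX, 4 S phase and 9 mitotic, beside 18.4% of all genes, and for 0 lower, beside 9.76%. Nusap1 stood at 2.18 and 2.68 without DOX and at 3.29 and 3.30 with it, higher by 0.87 ± 0.50 (SE, interval -0.18 to 1.92) with a limma adjusted p of 1. Uhrf1 changed by 0.57, from 5.85 and 5.70 to 6.90 and 5.78, so that the size lay in 1 array. Without it the change was 0.01. Medians within slides were 0.37 and 0.25 on slide 2 and 0.13 and 0.26 on slide 4. The S phase median was 0.50 without DOX replicate 2 of d1 BC, and the mitotic median 0.45 without DOX replicate 1. The mitotic median was also 0.30 without untreated replicate 2 and 0.27 without DOX replicate 2. Fibroblast feeder markers summed to 33.01 to 40.4 without DOX and to 12.6 to 16.1 with it. Endothelial markers summed to 13.2 to 21.2 and to 23.2 to 26.3, and blood progenitor markers to 5.39 to 7.59 and to 3.49 to 4.39. Pluripotency markers summed to 2.65 to 3.34 and to 3.92 to 3.98. The part of these lists in the members' change was not tested. The change in d1 BC minus that at 5 h had medians of 0.25 and 0.31. For that difference 0 members and 0% of 25366 genes passed an adjusted p of 0.05 by limma, with a lowest adjusted p of 1 among members.

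In the sorted cells DOX went with higher levels for most members, though no single one passed the test over all genes. The mitotic members in HP were an exception, with a median below that of all genes. There 1 mitotic member was higher without overlap and 5 were lower. Averaged over SM, HE1, HE2 and HP, 15 of 16 S phase and 17 of 22 mitotic members were positive, with medians of 0.62 and 0.44 beside 0.07 for all genes, of which 55.4% were positive. In this average limma called 0 members, where 0.31% of 27387 genes were, while 11 members, 6 S phase and 5 mitotic, had an unadjusted p under 0.05, where 11.7% of all genes did. In all 4 populations alike, 14 of 16 S phase and 13 of 22 mitotic members had a positive change, beside 23.9% of all genes. Within the 8 pairs of arrays that shared a slide, the S phase median was above 0 and above that of all genes in 8 (0.12 to 1.00), and the mitotic median was above 0 in 7 and above that of all genes in 6 (-0.01 to 0.72), where all genes ran from -0.05 to 0.46. Without the replicate 2 arrays of SM the averages were 0.53 and 0.30, after quantile normalization 0.33 and 0.14, and in the authors' values 0.34 and 0.15.

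**Figure D3:**
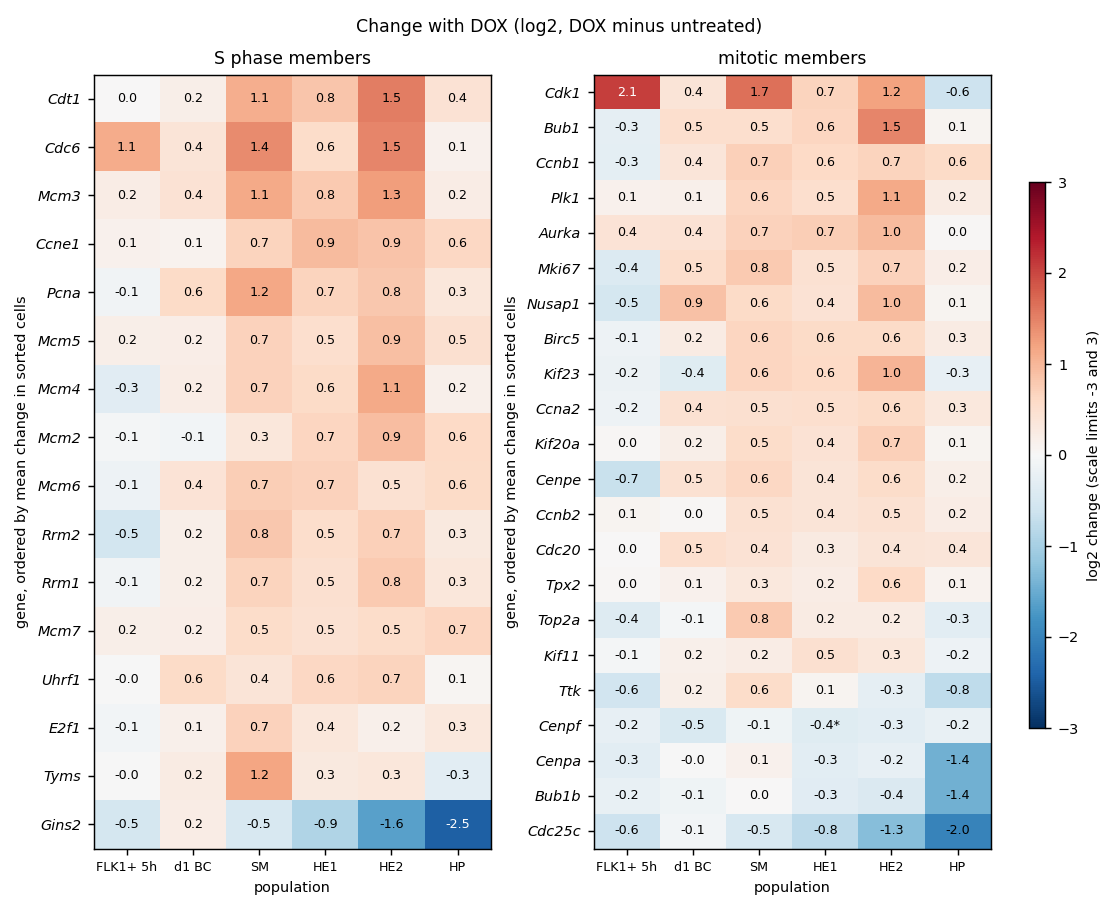
Change with DOX (log2, DOX minus untreated) of each tested member in the 6 populations, S phase members left and mitotic members right, ordered by the mean over the sorted populations, and * marks a value not tested. Most cells of the sorted columns are red, the FLK1+ 5h column is mixed, and Gins2, at -1.37 over the sorted populations, and Cdc25c run the other way.

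By population, the medians in SM were 0.70 and 0.55 beside 0.09 for all genes, with 15 of 16 and 20 of 22 members positive. In SM limma called 0 members, where 0.0084% of 23800 genes were, and 1 had an unadjusted p under 0.05, where 2.58% of all genes did. In 3 members the DOX arrays lay above all untreated ones, beside 4.47% of all genes, and in 0 below, beside 6.03%. Tyms stood at -1.30, 0.37 and -0.80 without DOX and at 0.36 and 0.85 with it, a change of 1.18 ± 0.52 (SE) with a limma adjusted p of 0.999, and the groups overlapped by 1 array. Mki67 went from 4.91, 5.14 and 4.69 to 5.31 and 6.08, a change of 0.78 with an interval from -0.19 to 1.75, and its groups did not overlap. Without DOX replicate 2 of SM the change of Mki67 was 0.398. The medians were 0.76 and 0.62 within slide 3 and 0.23 and 0.20 within slide 4, and without both replicate 2 arrays they were 0.40 and 0.22, so the SM value rested in part on the pair that stood apart. Fibroblast feeder markers summed to 171 to 209 in SM and to 91.6 to 155 in SM with DOX, and myeloid markers to 21.2 to 39.6 and 12.2 to 13.9, whose part in the members' change was not tested.

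In HE1, 15 of 16 S phase and 18 of 21 mitotic members were positive, at medians of 0.57 and 0.44 beside 0.09 for all genes. In HE1 limma called 0 members where 0% of 23202 genes were, and found 0 with an unadjusted p under 0.05 where 1.14% were. Higher levels without overlap were found for 6 of 37 members, beside 8.74% of all genes, and lower ones for 0, beside 8.32%. Ccne1 stood at 2.74 on both untreated arrays and at 3.00 and 4.38 with DOX, a change of 0.95 with an interval from -0.20 to 2.10. Bub1 changed by 0.65, from 2.62 and 2.41 to 2.71 and 3.62. For both genes most of the change lay in the slide 3 array: without DOX replicate 2 of HE1 the changes were 0.26 and 0.19, and without DOX replicate 1 they were 1.64 and 1.11. Medians over the sets were 0.12 and 0.19 within slide 1 and 1.00 and 0.72 within slide 3, and without DOX replicate 2 of HE1 they were -0.13 and 0.01. Fibroblast feeder markers summed to 46.1 to 88.2 in HE1 and to 25.0 to 45.4 with DOX, blood progenitor markers to 4.48 to 5.27 and to 6.07 to 12.998, and stress genes to 12.8 to 13.5 and to 9.0 to 10.3, whose part was not tested. In HE2 the medians were larger, at 0.80 and 0.57 beside 0.17 for all genes. They were 0.69 and 0.71 within slide 1 and 0.90 and 0.68 within slide 3. The S phase median was 0.27 without HE2 replicate 1, the dimmest array, 1.34 without DOX replicate 1 of HE2 and 0.40 after quantile normalization. In HE2 limma called 0 members, where 0% of 24086 genes were, and 2 had an unadjusted p under 0.05, where 8.91% of all genes did. Bub1 stood at 1.71 and 3.19 without DOX and at 3.56 and 4.28 with it, a change of 1.47 ± 0.58 (SE, interval 0.25 to 2.68) with a limma adjusted p of 0.54. Cdt1, the licensing factor, went from 3.65 and 5.44 to 5.47 and 6.69, a change of 1.53 ± 0.72 (adjusted p = 0.54 by limma). Without HE2 replicate 1 the changes of Bub1 and Cdt1 were 0.72 and 0.64, and without HE2 replicate 2 they were 2.21 and 2.42. For 6 members, these 2 genes included, both DOX arrays lay above both untreated arrays, beside 20.4% of all genes, with 0 lower beside 14.3%. The mitotic median in HE2 was 0.16 in the authors' values and 0.18 after quantile normalization, and 1.03 under median scaling. The median of all genes was 0.11 after quantile normalization and 0.63 under median scaling. The mean log2 level of 7 myeloid markers, relative to each gene's mean over the groups, was 2.25 in HE2 and 0.89 in HE2 with DOX. Their summed signal overlapped, at 44.5 to 136 and 59.1 to 76.4, and their part in the members' change was not tested.

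In HP the median was 0.33 for S phase members (14 of 16 positive) and 0.08 for mitotic members (13 of 22 positive) beside 0.25 for all genes, of which 68% were positive. In limma 0 members were called, where 0.0398% of 25126 genes were, and 1 had an unadjusted p under 0.05, where 3.5% of all genes did. Levels with DOX lay above all untreated ones for 5 members, 4 of them S phase, beside 25.6% of all genes, and below them for 6, 5 of them mitotic, beside 12.4%. Medians were 0.43 and -0.01 within slide 1 and 0.32 and 0.18 within slide 3. Under median scaling the medians were 0.025 and -0.23 beside -0.05 for all genes, and in the authors' values the mitotic one was -0.11. Without HP replicate 1 the medians were -0.11 and -0.27 and without HP DOX replicate 2 -0.19 and -0.35, while without HP replicate 2 they were 0.81 and 0.25 and without HP DOX replicate 1 0.76 and 0.44. The same mean of the myeloid markers was 3.07 in HP and 1.47 in HP with DOX, but their summed signal was not lower with DOX, at 105 to 119 and 110.3 to 143. For 6 stress genes the means were -0.27 and -1.21 and the sums overlapped, at 6.57 to 8.38 and 5.39 to 7.02. Erythroid markers had means of 1.52 and 2.33 and blood progenitor markers of 3.83 and 2.90, and the sums of both lists overlapped. The part of these lists was not tested. The change in HP minus that in HE2 had medians of -0.45 and -0.53 beside 0.02 for all genes, and was negative for 13 of 16 and 21 of 22 members. Without HE2 replicate 1 those medians were 0.036 and -0.088. Yet 0 members and 0% of 26110 genes passed in limma, with a lowest adjusted p of 0.92 among members, so no member was shown to respond differently. The same test of HE2 against HE1 and of SM against the other 3 gave 0 members and 0% of 25208 and of 27387 genes, with median differences of 0.15 and 0.09 and of 0.15 and 0.14, the latter turning to -0.082 and -0.24 without the replicate 2 arrays of SM.

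**Figure D4:**
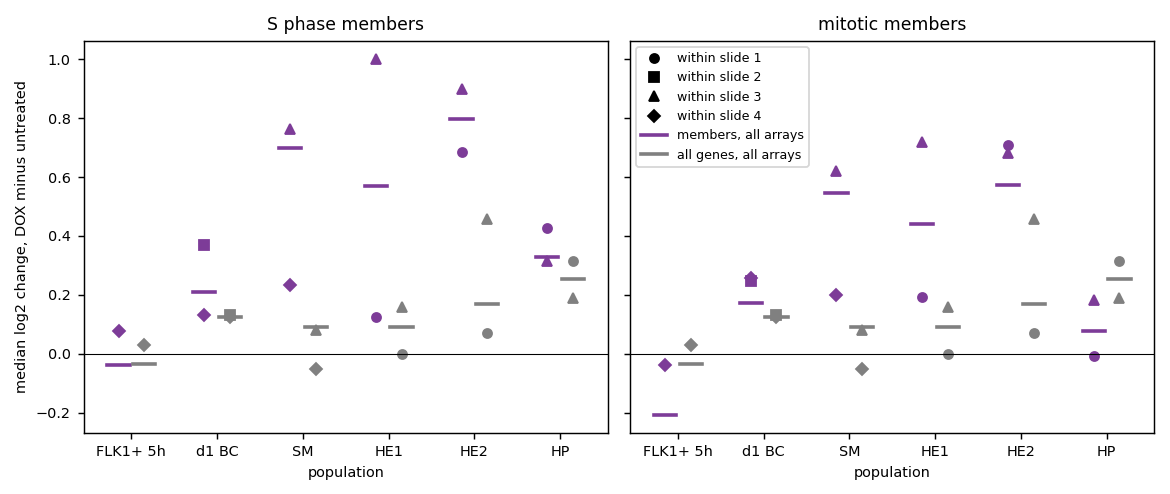
Median change with DOX (log2) of the S phase members (left) and mitotic members (right) in purple and of all genes in grey, as bars over all arrays and as points for pairs on 1 slide. In the sorted populations 8 of 8 S phase points and 7 of 8 mitotic points lie above 0.

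Over the 4 populations Ccne1 had the lowest p of the S phase members, at 0.78 ± 0.27 (SE, interval 0.21 to 1.34) with an unadjusted p of 0.00956 and an adjusted p of 0.313 by limma. Its 8 DOX arrays read 3.69 and 4.93 in SM, 3.00 and 4.38 in HE1, 3.59 and 4.49 in HE2 and 3.995 and 4.42 in HP, against 3.88, 3.64 and 3.43, 2.74 and 2.74, 2.75 and 3.60, and 3.38 and 3.78 without. The groups did not overlap in HE1 or HP. Cdt1 changed by 0.97 (interval 0.23 to 1.71, adjusted p = 0.347 by limma). With slide as a fixed or a random block it changed by 0.90 and 0.91 with a limma adjusted p of 0.0399 in each, which is under 2-fold and so was not called. The 6 helicase subunits Mcm2 to Mcm7 were positive in all 4 populations and averaged 0.55 (Mcm7) to 0.85 (Mcm3), and the ribonucleotide reductase genes Rrm1 and Rrm2 averaged 0.57 and 0.58. Bub1 had the lowest p of the mitotic members, at 0.67 (interval 0.08 to 1.26, adjusted p = 0.392 by limma), and Ccnb1 followed at 0.64, with the mitotic kinase genes Plk1 and Aurka at 0.63 and 0.60 and Mki67 at 0.53. Cdk1 averaged 0.73, but its interval ran from -1.17 to 2.62, and its untreated HE2 arrays alone read -0.95 and 3.81. A second probe of Ccne1, dimmer than the first, read -0.59 in the same average. The probes of Ccnb1 ran from -0.95 to 0.64, of Birc5 from -0.35 to 0.51, of Cdk1 from -0.29 to 0.73, of Tpx2 from -0.61 to 0.32 and of Uhrf1 from -0.40 to 0.43. The direction of these 6 genes thus turned on the probe, whereas the probes of Mki67 (0.45 to 0.53) and Cdc6 (0.67 to 0.89) were of 1 sign.

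A few members ran against the rest. Gins2, a subunit of the GINS complex, stood in HP at 3.15 and 3.56 without DOX and at 0.51 and 1.29 with it, lower by 2.45 ± 1.07 (SE, interval -4.71 to -0.20) with a limma adjusted p of 0.999. In HE2 it read 2.56 and 3.74 without DOX and 3.11 and -0.06 with it, and in SM 2.65, 0.44 and 3.09 against 3.104 and 0.0375. The low readings of SM, HE1 (-0.48 with DOX) and HE2 were all on slide 3, whereas both HP arrays with DOX were low. Cdc25c, the phosphatase that activates CDK1, read 0.74 and 0.45 in HP without DOX and -1.52 and -1.29 with it, and -1.88, -2.66, -2.25 and -2.09 on the slide 3 arrays of SM, SM with DOX, HE1 with DOX and HE2 with DOX. Bub1b and Cenpa, of the spindle checkpoint and the centromere, were also lower in HP without overlap, by 1.43 and 1.44. Bub1b had the lowest p of the mitotic members there (unadjusted p = 0.0657, limma adjusted p = 0.999), at 3.52 and 2.84 against 1.90 and 1.59. These 4 genes all read lower on the slide 3 array than on every other replicate in SM, in SM with DOX, and in HE1 and HE2 with DOX, and the part of the slide in their levels was not tested. The other exceptions to a positive change in all 4 populations were Cenpf (0 of 4), Ttk (2 of 4), and Tyms, Cdk1, Kif11, Kif23 and Top2a (3 of 4), each of the last 5 with its negative change in HP, from -0.15 for Kif11 to -0.61 for Cdk1.

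**Figure D5:**
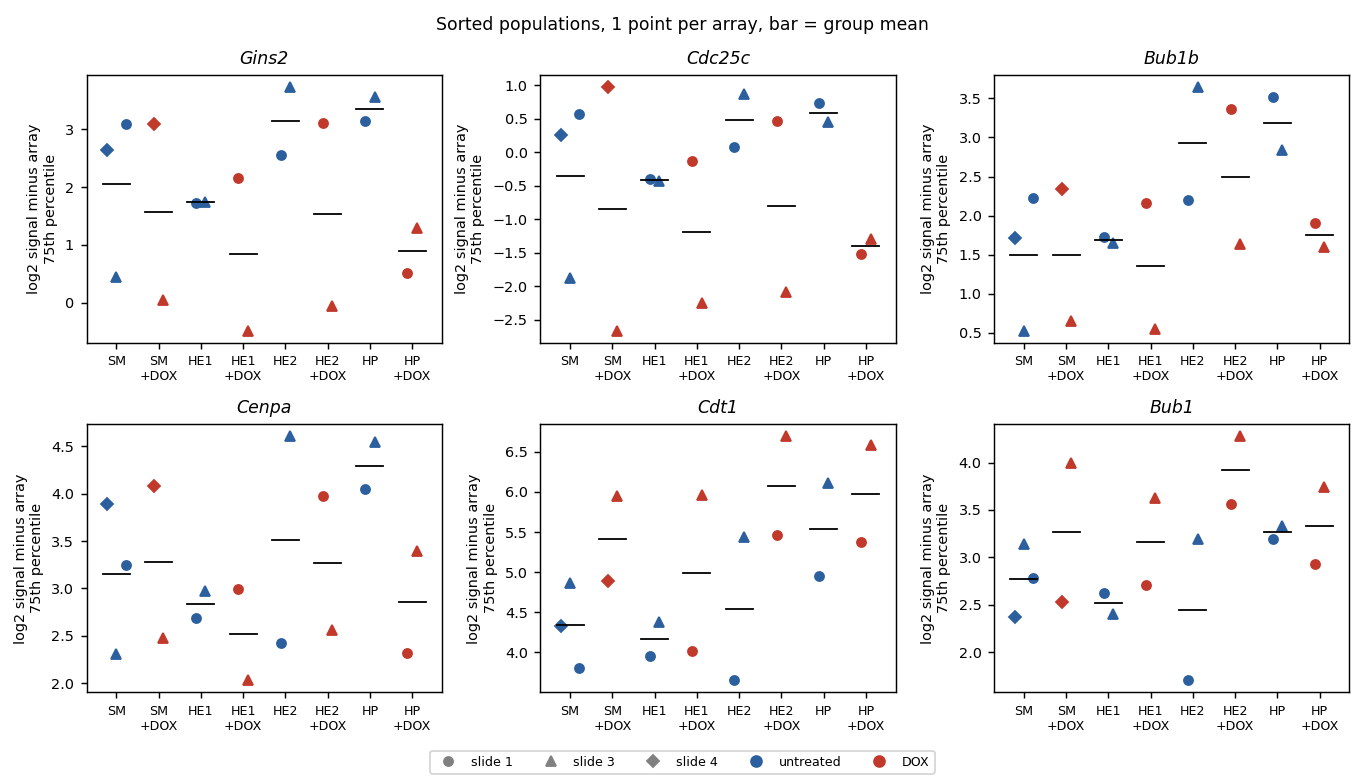
Levels of Gins2, Cdc25c, Bub1b, Cenpa, Cdt1 and Bub1 in the sorted populations without and with DOX (log2 signal minus the array 75th percentile), 1 point per array with marker shape for slide and a bar for the group mean. Gins2 and Cdc25c on slide 3 (triangles) are low in SM with and without DOX and in HE1 and HE2 with DOX, and both HP arrays with DOX are low.

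Genes of the same pathways outside the 40 were read from the same fit. Of 20 G1 and E2F regulators, 30 other replication genes and 43 other mitosis genes, 0 were called by limma in any of the 14 comparisons, where 0% to 3.13% of all genes were. Unadjusted p under 0.05 was met by 0 to 10 genes of a list, where 1.14% to 17% of all genes met it. With DOX, averaged over the sorted populations, 15 of 20, 22 of 30 and 37 of 43 were positive, at medians of 0.32, 0.51 and 0.46, beside 55.4% of all genes, and in SM 41 of the 43 mitosis genes were, at 0.64. After 5 h of blast culture without DOX, 27 of 30 replication genes were lower, at a median of -0.76, led by the thymidine kinase gene Tk1, lower by 2.34 with a limma adjusted p of 0.082. In HE1 against d1 BC, 39 of 43 mitosis genes were lower, at -0.73, and in HE2 against HE1 29 of 30 replication genes were higher, at 0.79. Under the alternatives run, limma called up to 5 G1 and E2F regulators in HE1 against d1 BC, with array quality weights, where 8.34% of all genes were, and up to 2 of them in d1 BC against 5 h, in 5 alternatives, where 1.32% to 4.31% were. In HE2 against HE1, 2 replication genes were called in the authors' values (5.26% of all genes) and 2 with slide as a fixed block (5.79%), and 2 mitosis genes in the authors' values. Up to 1 gene of a list was called in other comparisons without DOX, where 1.58% to 8.34% of all genes were, and 0 with DOX. The list medians given here for DOX, 5 h against FLK1+ cells, HE1 against d1 BC and HE2 against HE1 had the same sign as the members'.

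Among 7 CDK inhibitors, which hold cells before S phase, Cdkn2a was the only gene called, in d1 BC against 5 h, where 1.44% of all genes were. Under 6 alternatives Cdkn2b was called there too, where 1.32% to 4.31% of all genes were. In a fit of the groups compared alone neither was, where 0.627% of all genes were. Cdkn2b was also called in HE1 against d1 BC under 7 alternatives, where 2.97% to 8.34% of all genes were. Up to 1 inhibitor was called in 3 more untreated comparisons, where 3.19% to 6.34% of all genes were. Cdkn2a rose from -0.07 and -1.21 after 5 h to 3.71 and 3.11 in d1 BC, by 4.05 ± 0.61 (SE) or 16.6-fold, with a limma adjusted p of 0.00245. With DOX it read lower on every array than without in d1 BC, SM, HE1 and HE2, at 0.49 and 1.47 against 2.61, 3.60 and 3.01 in SM. Its average change over the sorted populations was -1.27 ± 0.30 (adjusted p = 0.0877 by limma), described here after its values were seen. That change was called under 6 alternatives, where 0.347% to 1.34% of all genes were. These were slide as a fixed and as a random block (limma adjusted p = 0.0378 and 0.0166) and the authors' values (0.0172). The mean of all probes (0.0154), normexp (0.0434) and quantile normalization (0.0441) gave the call too. Over all alternatives the limma adjusted p of Cdkn2a ran from 0.0154 to 0.327. Cdkn2b, its neighbour in the genome, read 2.49, 2.41 and 0.29 in SM and -0.52 and -0.17 in SM with DOX, and was above background on 0 of 2 HE2 arrays with DOX. Its average change over the sorted populations was -1.92 ± 0.59 (SE, adjusted p = 0.239 by limma). With slide as a fixed or a random block it was -2.08 and -2.04, at limma adjusted p of 0.0281 and 0.0201. Without HP replicate 1 that p was 0.0262, and over all alternatives it ran from 0.0201 to 0.582. The stress gene Atf3 fell in the same average, by 1.71 on the log2 scale (limma adjusted p = 0.0388), and the part of either change in the members' levels was not tested.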

How the data were processed

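Gene expression was measured on 27 SurePrint G3 mouse arrays with Cy3, 1 colour, in 13 groups. The deposited intensity values are Agilent Feature Extraction output (10.7.3.1 in the file headers, 10.7.1.1 in the submitters' processing notes), background-subtracted and detrended within each array, with replicates kept apart. The authors also deposited a table of log2 values, for which limma is named but scale, centring and background correction are not stated, with nearly equal medians in all 27 columns. Each of its 27 columns was closest to its own array. No 2 arrays held identical values.

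Of 62976 spots, control spots and outlier spots were left out, 55681 probes remained, and 26582 had a symbol, giving 37208 genes or transcripts, 20145 of them with a symbol. The processed signal was taken as log2 minus the array's 75th percentile, and the brightest probe stood for a gene. Genes were tested where every array of 1 or more of the groups compared had the probe well above background. limma (3.58.1, R 4.3.3, data.table, version 1.17.8) fitted 1 mean per group over all arrays (14 residual and 4.49 prior degrees of freedom), with Benjamini-Hochberg adjustment over all genes tested, and a call needed an adjusted p under 0.05 and 2-fold. Intervals are 95% intervals of the fit, and they and the p-values rest on 2 arrays per group. Slides and scan days were read from the files (5 slides, 4 scan days). Promoters were searched with Python 3.11.15 and pandas 2.3.3, and plots drawn with matplotlib 3.10.9 and numpy 2.4.6. The fit was tested on simulated data.

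The members, lists, tests and marker sets were chosen with earlier results of these data known. Named genes were the S phase and the mitotic member with the lowest p in each comparison where none was called, the levels of Mki67, Ccnb1, Mcm5, Pcna, Ccne1 and E2f1, Hprt as a check, and a called gene of each other list. Others named were chosen after their values were seen. Kif14 was not matched in the mitosis list. Alternatives were normexp (offset 50), quantile and median scaling, the authors' log2 values, the mean of all probes, other filters, slide as a fixed or random block, a replicate block, array weights, the groups compared alone, no fold limit and leaving out each array. Leaving out both replicate 2 arrays of SM, and crossing the replicate numbers of the untreated 5 h arrays, were chosen after seeing the data.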

Additional observations from a re-analysis of the deposited data

How the results depend on the processing

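No member was called in any DOX comparison under any alternative run. Counts of members called without DOX moved from 0 in 4 comparisons. For 5 h against FLK1+ cells they were 3 of 38 in the authors' values (4.58% of all genes) and 1 each with array quality weights (8.05%), quantile normalization (3.42%) and slide as a random block (5.58%). For HE1 against d1 BC they were 2 of 38 with array quality weights (8.34%) and 1 each in the authors' values, with the mean of all probes, normexp and quantile normalization (3.3% to 6.77%). In the authors' values they were 2 of 37 for HE2 against HE1 (5.26%) and 1 of 38 for d1 BC against 5 h (2.92%). Median scaling moved the median of all genes by -0.64 for DOX at 5 h, -0.73 for HE1 against d1 BC, -0.46 for SM against d1 BC, 0.46 for DOX in HE2 and 0.41 for HP against HE2, and by less in the other 9 comparisons. The members moved with it, to -0.68 (S phase) and -0.85 (mitotic) for DOX at 5 h, -1.51 and -1.19 for HE1 against d1 BC, and, for mitotic members, -0.99 for SM against d1 BC, 1.03 for DOX in HE2 and 0.55 for HP against HE2. The mitotic median for DOX in HE2 was 0.16 in the authors' values and 0.18 with quantile normalization. Cdc6 with DOX at 5 h reversed to -0.094 with slide as a fixed block, and ran from -0.14 to 2.39 when 1 array was left out. The causes were not tested.

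Leaving out 1 array at a time gave S phase medians of -0.13 to 1.33 for DOX in HE1, 0.26 to 1.40 in SM and -0.0074 to 1.30 for HE2 against HE1. Mitotic medians ran from 0.013 to 0.88 for DOX in HE1, 0.057 to 1.104 in SM, 0.22 to 1.00 in HE2, -0.35 to 0.44 in HP, 0.33 to 1.09 for HE2 against HE1 and -0.35 to 0.50 for HP against HE2. For the difference of the DOX effect, S phase and mitotic medians ran from -0.53 to 0.80 and from -0.25 to 0.66 for HE2 minus HE1, from -1.02 to 0.036 and from -1.06 to -0.088 for HP minus HE2, and from -0.35 to 0.78 and from -0.35 to 0.61 for SM minus the other sorted populations. Members called stayed at 0 each time.

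Replicate numbers are shared between groups without a stated pairing. Between a DOX group and its untreated partner, deviations of replicate 1 from 2 correlated at 0.259 to 0.647 in d1 BC and the sorted populations and at -0.178 at 5 h, and between untreated groups at -0.494 to 0.465. Since not every pair was positive, the numbers were not taken as pairs. In d1 BC and the sorted populations, however, DOX and untreated arrays of the same number shared a slide, which the main fit leaves out. For DOX averaged over the sorted populations, 0.31% of 27387 genes were called in the main fit. With slide as a fixed or a random block 1.05% and 1.34% were, and members called stayed at 0. A fit with the replicate number as a block called 0 members in all comparisons, with medians of 0.57 and 0.40 for DOX over the sorted populations. The untreated 5 h arrays correlated negatively with 3 groups, and a block with their numbers crossed also called 0 members. With 2 arrays a group, the median standard error of a member's log2 change was 0.578 to 0.638 between pairs of groups, which sets the size that could pass the test.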
